A study of Mus musculus with 2 samples.

Results

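The replication-dependent histone genes encode the bulk histones that package newly copied DNA. They were taken here as every gene symbol of the linker histone series H1f1 to H1f5 and of the clustered core histone series H2ac, H2bc, H3c and H4c, which gave 66 genes of the 33696 features counted. By class these were 5 H1, 18 H2A, 18 H2B, 12 H3 and 13 H4 genes. At least 1 transcript molecule was counted for 63 of them, and H2ac1, H2ac19 and H2bc1 were at 0 in both libraries. With a minimum of 20 UMIs (unique molecular identifiers, each standing for 1 captured transcript molecule), 57 genes could be compared in 1 library and 58 in the other, 56 of them in both.

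H2A, H2B, H3 and H4 form the protein core of the nucleosome, and H1 binds the linker DNA between nucleosomes. These genes are known for being transcribed mainly in S phase, when DNA is copied, and their mRNAs typically end in a conserved stem-loop bound by the protein SLBP in place of a poly(A) tail. Replacement histones such as H3f3b are made outside S phase from ordinary polyadenylated mRNAs. The assay primes on poly(A), so it reads those histone transcripts that carry a tail or an A-rich stretch. Which of these was captured was not tested.

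The study profiled cells of mouse skin wounds by droplet single-cell RNA sequencing. Full-thickness dorsal wounds of 10 mm were taken on day 6 from male wild-type C57BL/6 mice at 2 ages, 2 months (the young library) and 24 months (the aged library). Each library pooled cells of several mice, so there was 1 sample per age and no test between the ages. Intervals given here are exact 95% intervals for counting error only. Any difference between the libraries may come from age, from the animals pooled or from how each library was made, which cannot be told apart.

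After removal of poor barcodes the libraries held 4661 young and 4210 aged cells, with a median of 15566 and 13776.5 UMIs per cell. They shared 3 cell barcodes. The cells were split by Top2a, which encodes the DNA topoisomerase of proliferating cells and peaks in G2 and M phase. At least 1 Top2a UMI was found in 499 young cells (10.7%, 9.83 to 11.6) and 473 aged cells (11.2%, 10.3 to 12.2), and 249 and 174 of these carried exactly 1. Among neutrophil-gated cells (mature neutrophils do not divide) the share was 25 of 1400 young cells (1.79%) and 1 of 922 aged cells (0.108%), at shallower median depths of 5751.5 and 4490 UMIs. When each cell was thinned to 2000 UMIs the overall shares were 3.14% and 3.83%, with 236 young and 291 aged shallower cells left out.

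The sequence feature that defines this gene family is the 3′ stem-loop, and the members below show 4 of its 8 forms and a range of responses. It was searched as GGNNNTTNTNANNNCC on the transcribed strand of the longest protein-coding GENCODE M21 model (build GRCm38) and was found in 44 of 66 genes. In each line the stem-loop is in capitals, read 5′ to 3′ with the bases beside it, written as DNA. H2ac24, H3c3, H1f4, H4c4 and H4c9 lie on chromosome 13, H2ac18 on chromosome 3 and H4c16 on chromosome 6.
H2ac24: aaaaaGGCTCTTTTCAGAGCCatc
H3c3: aaaaaGGCTCTTTTAAGAGCCacc
H2ac18: aaaaaGGCTCTTTTCAGAGCCacc
H1f4: ccaaaGGCTCTTTTCAGAGCCacc
H4c4: ccaaaGGCCCTTTTCAGGGCCact
H4c9: ttaaaGGCCCTTTTTAGGGCCacc
H4c16: acaaaGGCCCTTTTCAGGGCCcac
The form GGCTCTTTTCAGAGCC was shared by 25 genes of H1, H2A, H2B and H3, and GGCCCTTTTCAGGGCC by 7 genes, all of them H4. The form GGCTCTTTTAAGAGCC was found in 5 H2B and H3 genes, H3c3 among them. A match was present in the last 2500 bases of 2.81% of 58797 protein-coding transcripts. The members were searched over the whole model, so the 2 shares are not on the same measure. The H1f3 match, for one, has 4884 bases after it. Of the 22 genes without a match, 11 have a model that holds coding sequence only, so these letters could not be found there.

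Summed over all members, histone transcripts made up 0.0762% of the UMIs of young cells and 0.0776% of those of aged cells. The class shares of the 168313 histone UMIs were 35.5% H2A, 26.9% H1, 14.6% H4, 14.5% H2B and 8.43% H3. Histone UMIs were unevenly spread: cells with a Top2a UMI held 66.3% of them in the young and 75.2% in the aged library, against 19.4% and 25.9% of all UMIs. The 10 cells richest in histone UMIs held 15.7% and 12.7%, and 561 young and 831 aged cells had none.

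In the young library the summed histone level was 2600.3 CPM (UMIs per 1000000 UMIs of the group; 2579 to 2622) in cells with a Top2a UMI and 318 (315 to 322) in cells without, a ratio of 8.17 (8.05 to 8.29). In the aged library it was 2258 (2240 to 2275) and 259.9 (256 to 263), a ratio of 8.69 (8.55 to 8.83). Cells with Top2a were deeper, with median totals of 37116 and 55283 UMIs against 14035.5 and 11800. With every cell thinned to 2000 UMIs before the Top2a call the ratios were 8.91 and 9.89. Leaving out the 10 cells with the most histone UMIs gave 6.54 and 7.57.

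The classes differed widely in this ratio. H3, the class with the lowest level in cells without Top2a (9.82 CPM young and 7.999 aged), stood at 278 and 239 CPM in cells with it, ratios of 28.4 (26.4 to 30.5) and 29.9 (27.6 to 32.5). H2A followed with 15.3 young and 18.7 aged, then H1 with 6.92 and 8.88, and H4 with 5.57 and 6.42. H2B was last at 2.59 (2.50 to 2.69) and 2.27 (2.19 to 2.35), with 83.1 and 85.6 CPM already present in cells without Top2a. The order of the 5 classes was the same in both libraries, and no 2 neighbouring classes overlapped in their counting intervals within a library.

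**Figure D1:**
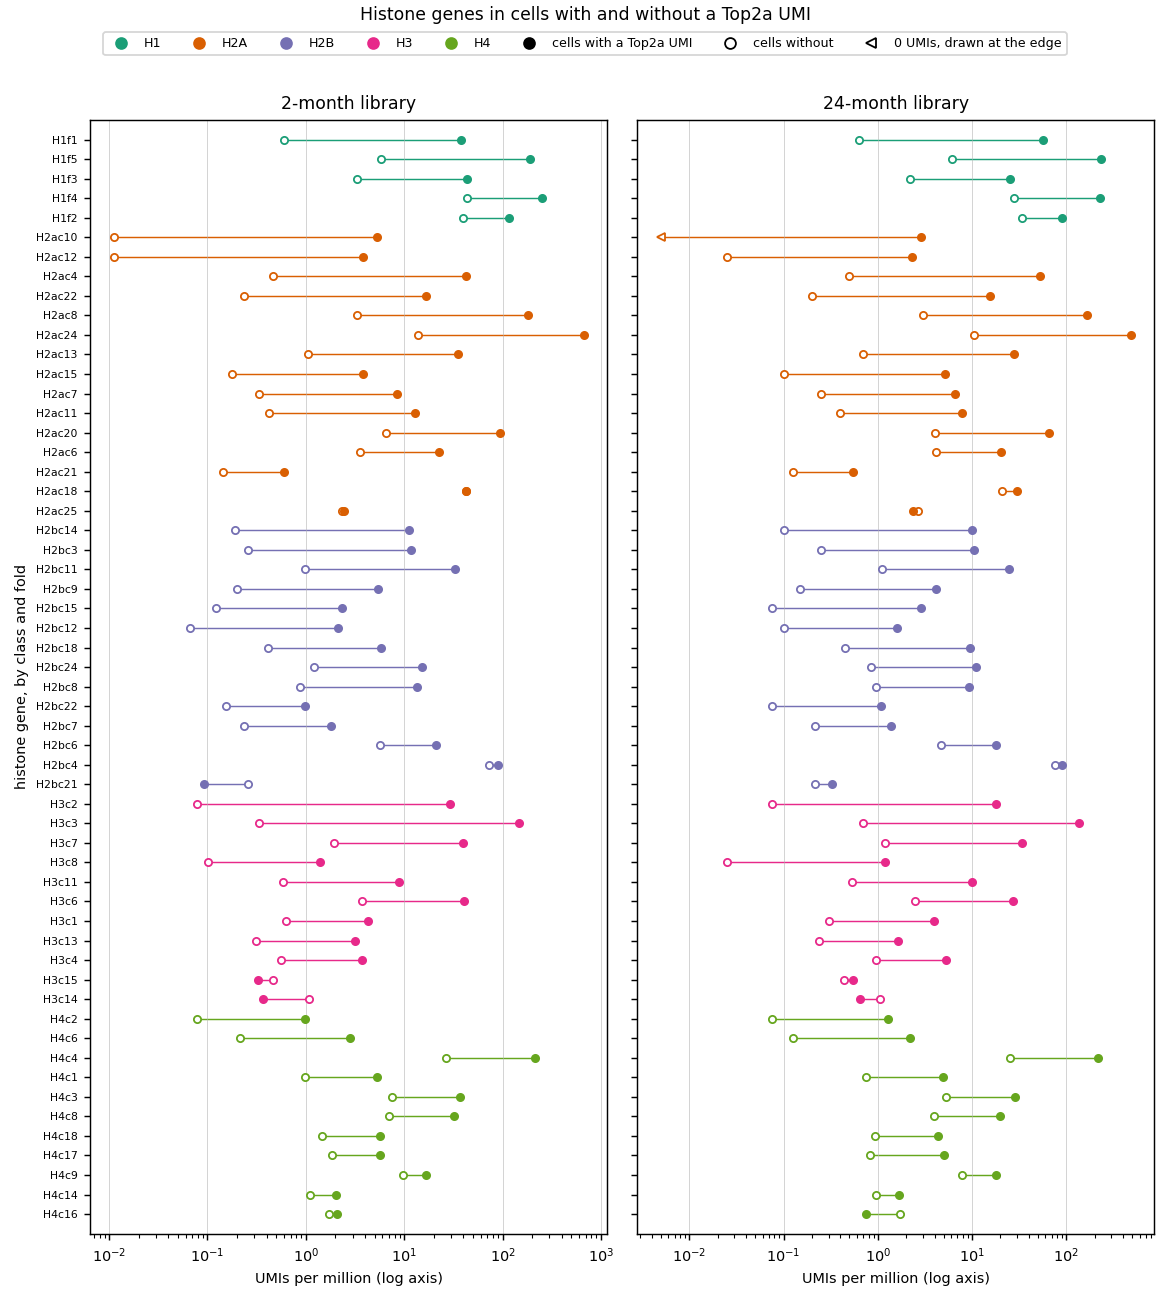
Level of the 56 histone genes with at least 20 UMIs in both libraries, in CPM on a log axis, 1 row per gene, coloured by class. Filled points are cells with a Top2a UMI and open points cells without, summed within a library. Most H2A and H3 genes span more than 1 decade, whereas H2ac18, H2ac25, H2bc4, H3c14, H3c15 and H4c16 have filled and open points close together or crossed. An open triangle marks 0 UMIs and has no position on the axis.

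Gene by gene, 50 of 57 members were at least 1.5-fold higher in cells with Top2a in the young library, where 23.4% of all 18352 features with 20 UMIs were, and 51 of 58 in the aged library, where 17.0% of features were. Lower by the same factor were H2bc21 and H3c14 in the young library (14.5% of features), and H3c14, H4c16 and H2bc27 in the aged (18.2%). H2bc27, named here after its values were seen, had 1 UMI with and 27 without Top2a in the aged library. The median member ratio was 12.6 young and 13.0 aged, and the median over all features 1.15 and 1.05. In both libraries 30 of the 56 members compared in both were at least 10-fold higher and carried 50.1% of the histone UMIs. Another 8 were under 2-fold in both libraries and carried 15.3%. The 18 between them carried 34.5%.

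Among linker histones the split was wide. H1f5 stood at 192 CPM with Top2a and 5.76 without in the young library, and at 232 and 6.09 in the aged, ratios of 33.3 (30.4 to 36.6) and 38.1 (34.7 to 41.8). H1f1 had ratios of 62.6 (47.5 to 84.1) and 89.4 (67.5 to 121) at a lower level of 37.7 and 56.1 CPM with Top2a. H1f4, with the most UMIs of the class, was at 251 and 226 CPM with Top2a and still at 43.1 and 27.8 CPM without it, ratios of 5.83 and 8.11. H1f2 was the flattest at 2.92 (2.78 to 3.08) and 2.65 (2.51 to 2.80). Cells without Top2a thus held mainly H1f4 and H1f2 among linker histone transcripts, with H1f1 near 0.6 CPM in both libraries.

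H2ac24 was the most abundant of all members in cells with Top2a, at 668 CPM (657 to 679) young and 484 (476 to 492) aged. In cells without it was at 13.7 and 10.5 CPM, ratios of 48.8 (46.0 to 51.8) and 46.3 (43.2 to 49.7). H2ac8, the next H2A gene, had ratios of 53.8 and 54.0 from 180 and 165 CPM with Top2a. H2ac10 had the highest ratio of all members with at least 50 UMIs: of its 195 UMIs 1 lay in a young cell without Top2a and none in an aged one. That gives 476 (83.8 to 1.9e+04) young and at least 75.5-fold higher in the aged library, against a floor of 3 counts over the group. H2ac18 and H2ac25 were the H2A genes under 2-fold in both libraries. H2ac18 was at 42.7 CPM with and 42.1 without Top2a in the young library and 30.1 and 20.97 in the aged, ratios of 1.01 (0.942 to 1.09) and 1.44 (1.32 to 1.56); as a mean over cells the aged ratio was 0.651. H2ac25 was at 2.45 and 2.34 CPM with and 2.32 and 2.66 without Top2a, ratios of 1.06 (0.766 to 1.43) and 0.879 (0.655 to 1.17).

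Of the H3 genes, H3c3 and H3c2 were nearly absent from cells without Top2a. H3c3 was at 147 CPM (142 to 152) young and 137 (133 to 141) aged in cells with Top2a, and at 0.335 and 0.690 CPM without, from 30 and 55 UMIs over all such cells. The ratios were 439 (307 to 652) and 199 (152 to 264). H3c2 was at a lower level, 29.2 and 17.8 CPM against 0.0781 and 0.0752, ratios of 374 (180 to 934) and 236 (108 to 647). H3c6 held a background of 3.70 and 2.49 CPM and ratios of 10.8 and 10.9. H3c14 ran the other way, at 0.370 CPM with and 1.07 without Top2a in the young library (ratio 0.345, 0.145 to 0.708) and 0.647 and 1.05 in the aged (0.615, 0.347 to 1.03).

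H4c4 dominated its class, at 214 and 219 CPM with Top2a and 26.7 and 25.1 without, ratios of 8.02 (7.63 to 8.42) and 8.72 (8.29 to 9.18). H4c3 was at 36.7 and 28.5 CPM against 7.54 and 5.34, ratios of 4.86 and 5.34. H4c16 had 2.08 and 0.755 CPM with and 1.71 and 1.72 without, ratios of 1.22 (0.854 to 1.71) and 0.440 (0.264 to 0.699). Of the H4 genes with at least 20 UMIs in both libraries, H4c2 and H4c6 passed 10-fold in both, against 11 H2A genes.

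H2bc4 accounted for the flat profile of its class. It was at 90.4 CPM (86.4 to 94.5) young and 89.2 (85.8 to 92.8) aged with Top2a, and at 72.3 (70.6 to 74.1) and 76.0 (74.1 to 77.95) without, ratios of 1.25 and 1.17. The next H2B gene, H2bc6, was at 20.9 and 18.1 CPM against 5.65 and 4.66, ratios of 3.70 and 3.88. H2bc21 had 25 and 26 UMIs in all, with ratios of 0.360 (0.0412 to 1.46) and 1.52 (0.596 to 3.601) that counting error does not separate from 1. Another 8 H2B genes were at least 10-fold higher in both libraries, and the class medians were 14.7 and 14.3 for H2B genes against 30.4 and 40.1 for H2A genes.

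The ratios were also set against the annotated length of the transcript after the stem-loop. The 20 genes with under 100 annotated bases after it that had 20 UMIs in both libraries had median ratios of 19.8 young and 18.5 aged, and 1 of them, H2ac18 with 35 bases, was under 2-fold. The 17 genes with 300 or more bases after it had medians of 4.86 in each library, and 6 young and 5 aged ratios under 2-fold. H3c14, H3c15, H4c14, H4c16 and H2ac25 are in this set, and so are H4c4 (770 bases, ratios of 8.02 and 8.72) and H1f3, H2bc9, H3c6 and H3c7, each over 10-fold in both libraries. H2bc4 and H2bc21, also under 2-fold, had no match to the stem-loop letters in their models. A polyadenylation signal (AATAAA or ATTAAA, transcribed strand) lay in the last 50 bases of the models of 13 compared genes, with median ratios of 2.92 and 2.65. The 43 without one had medians of 15.1 and 18.9. Model ends are annotation, not measurements of these cells, and a missing match says only that these letters are not in that window.

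**Figure D2:**
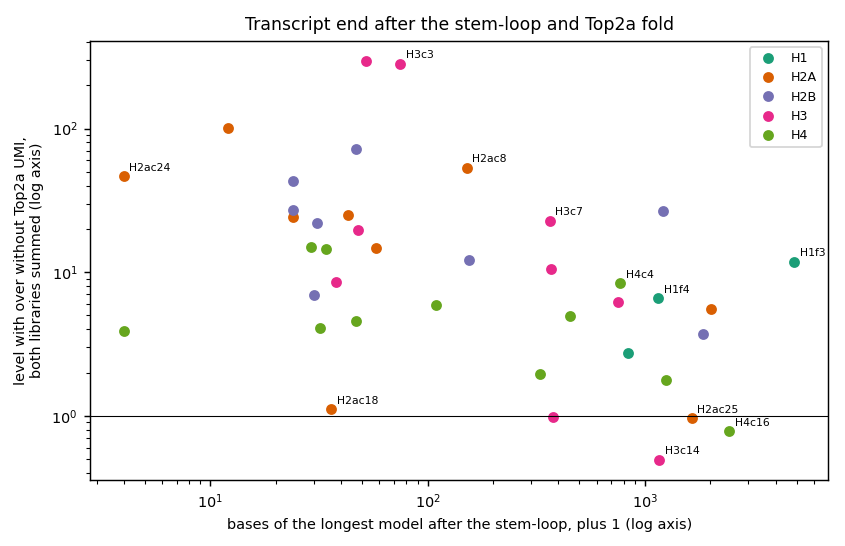
Annotated bases after the stem-loop (plus 1, log axis) against the ratio of levels in cells with over cells without a Top2a UMI (both libraries summed, log axis), 1 point per gene with a stem-loop and at least 20 UMIs in each library, coloured by class. H2ac18 lies near 1 among the short ends, and the 4 genes below 1 (H2ac25, H3c14, H3c15 and H4c16) have 300 or more bases after the stem-loop.

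Many of these genes are near copies of each other, which limits what single-gene values can say. Among the annotated models 25 genes share at least 50% of their 91-base words (the length of the sequenced read) with the other members. For this count a word was shared if any other member held it. The single shares that follow are each with the member named. H2ac24 shares 92.3% with H2ac23, H2ac18 shares 88.3% with H2ac19, and H4c17 shares 88.5% with H4c18. H2ac19, at 0 in both libraries, shares 100% of its words with H2ac18, so its 0 does not show that it was silent. H3c15 shares 61.9% with H3c14. The values of such genes are uncertain between the copies. Sharing also crossed classes, as H1f4 shares 22.1% of its words with H2bc6 and H2bc6 shares 9.14% with H1f4, so class sums may be touched as well.

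Promoters were compared in RefSeq windows of GRCm38.p6 from 250 bases before to 50 after the annotated start, which matched 61 members. The windows below show a member of an opposed H2A and H2B pair, the leading H4 gene and H2ac18, under 2-fold over all cells in both libraries. Capitals mark 3 motifs on either strand, known as the TATA box (TATAAA), the CCAAT box and the octamer (ATTTGCAT). In the H2ac8 window the TATAAA letters lie on the opposite strand, in the stretch shared with the window of H2bc8, which runs the other way. The H2ac8 window is chr13:23571171-23571470 (minus strand), that of H4c4 chr13:23581318-23581617 (plus strand) and that of H2ac18 chr3:96245247-96245546 (plus strand).
H2ac8 promoter: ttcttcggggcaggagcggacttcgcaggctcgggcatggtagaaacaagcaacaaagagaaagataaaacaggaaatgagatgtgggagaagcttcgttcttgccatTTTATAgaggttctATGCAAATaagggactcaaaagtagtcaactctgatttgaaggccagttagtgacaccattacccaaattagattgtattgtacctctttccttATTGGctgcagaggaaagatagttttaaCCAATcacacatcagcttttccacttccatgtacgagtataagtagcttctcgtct
H4c4 promoter: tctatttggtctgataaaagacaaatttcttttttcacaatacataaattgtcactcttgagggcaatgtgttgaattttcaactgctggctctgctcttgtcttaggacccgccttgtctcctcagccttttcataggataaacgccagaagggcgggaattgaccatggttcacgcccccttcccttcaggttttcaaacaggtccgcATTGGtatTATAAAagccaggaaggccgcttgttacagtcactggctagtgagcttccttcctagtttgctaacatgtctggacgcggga
H2ac18 promoter: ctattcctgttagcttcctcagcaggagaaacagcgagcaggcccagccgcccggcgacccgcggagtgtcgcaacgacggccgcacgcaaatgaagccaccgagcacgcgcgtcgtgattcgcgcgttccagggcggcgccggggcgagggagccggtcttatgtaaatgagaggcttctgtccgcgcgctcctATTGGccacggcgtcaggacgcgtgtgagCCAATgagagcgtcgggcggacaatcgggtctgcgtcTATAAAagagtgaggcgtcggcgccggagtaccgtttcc
CCAAT was present in 85.2% of member windows against 37.4% of 32851 promoters in the table: in all matched H1, H2A, H2B and H3 genes, and in 3 of 12 H4 genes. TATAAA was present in 57.4% of member windows against 13.6% of the table. ATTTGCAT was found in 21.3% against 1.74%, in 7 of 18 H2A and 6 of 16 H2B windows and in none of H1, H3 or H4. The windows of opposed H2A and H2B genes overlap, so a site in the shared stretch is counted for both genes. The octamer of H2ac12 and H2bc12 is such a site. CCAAT was found both in the 10-fold genes (27 of 29) and in those under 2-fold (4 of 5). TATAAA was found in 16 of 29 and 1 of 5. Of the 8 genes under 2-fold, H2bc4, H2bc21 and H4c14 had no matched window and are not in these counts. None of the 3 motifs is contained in another.

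Opposed H2A and H2B genes whose windows overlapped by 220 to 279 bases on opposite strands formed 10 pairs. In 7 pairs both genes had at least 50 UMIs, and the H2A gene had the more UMIs in 6 and the higher Top2a ratio in 6. H2ac24 had 29973 UMIs over both libraries and its partner H2bc24 812, with ratios of 46.4 and 12.3. H2ac8 had 9019 UMIs and H2bc8 705, with ratios of 53.5 and 12.1. The reverse order was seen for H2ac11 with 566 UMIs and H2bc11 with 1577, whose ratios were 24.3 and 27.3. The genes of a pair thus had unequal UMI counts, with the H2A gene ahead in most. How well each gene's transcripts were captured was not measured, so UMIs do not rank the genes by transcript number. H2ac24 and H2bc24 also share 92.3% and 86.8% of their 91-base words with H2ac23 and H2bc23.

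Most of the difference lay between cells with few and with many Top2a UMIs. In cells with 0, 1, 2 to 4, 5 to 19 and 20 or more Top2a UMIs the summed histone level of the young library was 318, 383, 559, 3208 and 6026 CPM. In the aged library it was 259.9, 313, 302, 2359 and 4750 (4708 to 4792) CPM. The median cell with 5 to 19 Top2a UMIs stood lower than its summed level, at 1114 CPM young and 671 aged. Median depths there were 32576 and 53270.5 UMIs. The cells with 20 or more Top2a UMIs, 90 young and 121 aged, held 51.0% and 59.2% of all histone UMIs. Their median cell had UMIs from 35.5 and 35 different members, against 3 and 2 in cells without Top2a, at median depths of 74852.5 and 85482 UMIs. Spread between these cells was wide, with quartiles of 1808 and 9634 CPM young and 809.6 and 7596 CPM aged.

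**Figure D3:**
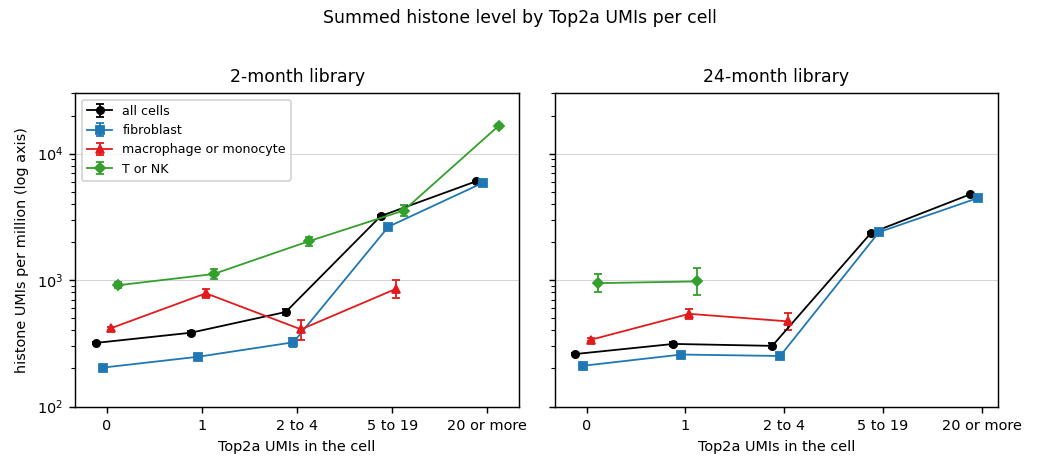
Summed histone level (CPM, log axis) by the number of Top2a UMIs in the cell, in each library, for all cells and for 3 marker-gated types, with 95% counting intervals. Bins with under 5 cells are not drawn. For all cells the summed level lies between 259.9 and 559 up to 4 Top2a UMIs and above 2000 from 5 UMIs on. Median cells, not drawn, stand at 1114 young and 671 aged with 5 to 19 UMIs.

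Cells with at least 5 Top2a UMIs were divided further by Rrm2, the ribonucleotide reductase subunit made in S phase. With an Rrm2 UMI the summed level was 6181 CPM (6125 to 6237; 105 cells) young and 4522 (4484 to 4560; 151 cells) aged. Without one it was 2071 (2009 to 2135; 39 cells) and 1719 (1664 to 1775; 34 cells), ratios of 2.98 and 2.63. Thinned to 10000 UMIs per cell the ratios were 2.36 (2.26 to 2.46) and 1.98 (1.90 to 2.07). A split by Plk1, a mitotic kinase, gave 5458 against 5089 CPM young and 4228 against 3787 aged. Among cells without Top2a those with an Rrm2 UMI were mostly fibroblast-gated, 104 of 125 young and 88 of 101 aged. Within that gate they were at 221 CPM (208 to 235) against 202 (198 to 206) young and 212 (199.7 to 225) against 209.6 (206 to 214) aged. In the macrophage or monocyte gate they were at 367 (263 to 498) against 417 CPM young and 1465 (1254 to 1702) against 328 aged, from 5 and 8 cells.

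Single members followed Rrm2 to different degrees in these cells. H1f1 had the widest gap of the leading genes, with ratios of 6.41 (4.50 to 9.43) young and 4.51 (3.47 to 5.96) aged. H3c3 had 3.61 and 3.11, H1f5 3.04 and 3.48, and H4c4 2.70 and 2.69. H2bc4 had 1.14 (0.97 to 1.34) and 0.99 (0.85 to 1.15), intervals that include 1. H2ac18, under 2-fold between all cells with and without Top2a in both libraries, had 1.87 (1.48 to 2.40) and 2.94 (2.10 to 4.24) here.

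Other genes of histone supply and of the cell cycle gave the scale for these ratios. All 24 genes of a DNA replication list were at least 1.5-fold higher with Top2a in both libraries, with medians of 5.77 and 5.41, from Pcna (2.02 and 1.92) and Cdt1 (2.41 and 2.39) up to Clspn (25.1 and 27.3). All 16 genes of a G2 and M phase list were as well, with medians of 47.1 and 32.0, Aurka (10.7 and 9.13) and Mki67 (11.5 and 9.77) being among the lowest and Plk1 (105 and 59.7) and Ccna2 (118 and 60.4) the highest of the young library. The median member ratio of 12.6 and 13.0 thus lay between the medians of these lists.

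Genes that process histone mRNA had lower ratios. Of 14, 7 were higher in the young library (against 23.4% of features) and 4 in the aged (against 17.0%), where 1 was lower, and the medians were 1.47 and 1.36. Slbp, the stem-loop binding protein, was at 60.5 against 42.5 CPM young and 53.6 against 40.1 aged, ratios of 1.42 and 1.34. Npat, the coactivator of histone gene transcription, had 1.99 and 1.59, Casp8ap2 2.07 and 1.67, Lsm10 0.90 and 0.78 and Zfp473 0.73 and 0.64. Zfp473, the gene counted as lower in the aged library, had 6 young and 8 aged UMIs with Top2a. Its intervals, 0.25 to 1.76 and 0.26 to 1.39, include 1.

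Histone chaperones, which carry histones to DNA, had 10 of 13 genes higher in the young and 6 of 13 in the aged library (76.9% and 46.2%, against 23.4% and 17.0% of features), with medians of 2.03 and 1.41. Asf1b was highest at 21.5 and 14.8, and Chaf1a, a subunit of chromatin assembly factor 1, next at 9.09 and 7.59. Daxx (1.11 and 0.81) and Hira (1.27 and 1.11), which serve replacement H3.3, were lowest. Replacement histones had 8 of 11 genes higher in the young and 7 of 11 in the aged library (72.7% and 63.6%, against 23.4% and 17.0% of features), with medians of 1.89 and 2.13. H3f3a (0.95 and 0.90) and H3f3b (0.95 and 0.96) were flat, and Cenpa (5.59 and 6.18), the centromeric H3, and H1f10 (3.58 and 4.39) were highest.

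Cell types were assigned by markers, where a cell's leading list had at least 3 detected genes and at least 3 times the UMIs of the next list. A gate so built is a range of marker signal and not a proven type, and it left 607 young and 602 aged cells unassigned. Fibroblast-gated cells were 1573 young and 1473 aged, macrophage- or monocyte-gated 639 and 1086, neutrophil-gated 1400 and 922, T- or NK-gated 318 and 43, and endothelial-gated 41 and 40. In fibroblast-gated cells the 8 fibroblast markers summed to between 37862 and 51691 CPM over the 4 groups of library and Top2a, and those of macrophages to at most 115 and of neutrophils to at most 166.

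Fibroblast-gated cells, which were also deep, held 49279 of the 84794 young and 65262 of the 83519 aged histone UMIs. Over the whole gate the level was 693 CPM young and 840 aged. All cells together stood at 762 and 776 CPM, so the gate lay below them in the young library and above them in the aged. Its summed level was 2469 CPM (2444 to 2494) with and 203 (200 to 207) without Top2a in the young library. In the aged it was 2227 (2208 to 2246) and 209.9 (206 to 214), and the ratios were 12.1 and 10.6. H3 had the widest class ratio here too, 51.8 and 39.1, from 5.29 and 5.96 CPM without Top2a. Without Top2a, H2bc4 alone made up 38.3% and 40.8% of their histone UMIs, at 77.9 and 85.5 CPM. With Top2a the leading gene was H2ac24, at 28.1% and 21.9% of the pool.

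Neutrophil-gated cells without Top2a carried a different set. Their summed level was 507 CPM (494 to 520) young and 341 (325 to 358) aged, above that of fibroblast-gated cells, and H2ac18 led with 29.3% and 28.5% of the histone UMIs. Median depths were 5701 and 4490 UMIs, against 40315 and 46087 in fibroblast-gated cells without Top2a. H2ac18 was at 149 CPM (142 to 156) young and 97.2 (88.8 to 106) aged, against 20.4 and 11.8 in fibroblast-gated cells without Top2a, ratios of 7.27 (6.74 to 7.84) and 8.21 (7.28 to 9.25). H4c9 had 38.2 and 33.1 CPM against 2.87 and 4.61, ratios of 13.3 and 7.18, and H2bc6 had 19.3 and 21.3 against 2.24 and 2.77, ratios of 8.63 and 7.68. These genes were named after their values were seen. H4c4 had the opposite order, at 9.97 and 4.34 CPM in neutrophil-gated cells against 21.01 and 22.7 in fibroblast-gated ones, ratios of 0.47 (0.39 to 0.58) and 0.19 (0.12 to 0.29).

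Within fibroblast-gated cells alone H2ac18 was at 36.4 CPM (33.5 to 39.6) with and 20.4 (19.3 to 21.7) without Top2a in the young library, and at 28.1 (26.1 to 30.3) and 11.8 (10.9 to 12.8) in the aged. The intervals with and without Top2a did not overlap, unlike those over all young cells. H2bc4 differed less in this gate, with 94.6 against 77.9 CPM young and 88.5 against 85.5 aged.

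The 25 young neutrophil-gated cells with Top2a summed to 2463 CPM (2327 to 2604), and 79.7% of their 1233 histone UMIs came from 3 cells; without these 3 the level was 693 (610 to 784). Summed neutrophil markers were 34312 CPM in the 25 cells against 83626 in those without Top2a, and macrophage markers 765 against 320. The part of these in the result was not tested. The single aged neutrophil-gated cell with Top2a held no histone UMI.

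T- or NK-gated cells had the highest levels of the gates, 4385 CPM (4253 to 4521) with and 911 (866 to 958) without Top2a in the young library, and 7865 (7530 to 8211) and 945 (802 to 1108) in the aged. Without Top2a their pool was led by H1f4, at 266 CPM (242 to 292) young and 377 (288 to 484) aged, 14.3 (12.75 to 15.97) and 19.65 (14.9 to 25.5) times the fibroblast-gated level. H2bc4 was at 16.6 and 24.7 CPM, below the fibroblast-gated values, with ratios of 0.21 (0.14 to 0.31) and 0.29 (0.08 to 0.74). The aged values rest on 17 cells with and 26 without Top2a, and 3 cells held 73.5% of the histone UMIs of the 17. Median depths without Top2a were 7055 young and 5910.5 aged UMIs in this gate, against 40315 and 46087 in fibroblast-gated cells. Depth enters the Top2a call, and its part in these differences between gates was not tested.

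**Figure D4:**
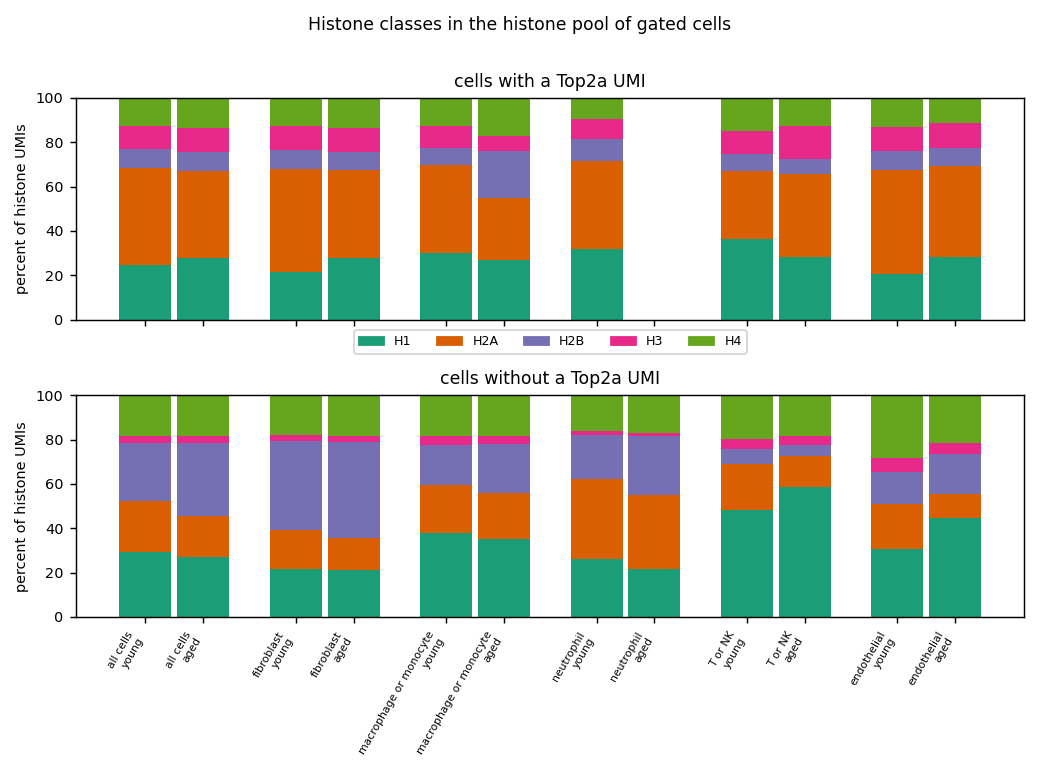
Share of each histone class in the histone UMIs of all cells and of 5 marker-gated types (percent), with Top2a above and without below, young beside aged. With Top2a, H2A is the largest class in all bars but that of young T- or NK-gated cells. Without Top2a the leading class differs by gate: H2B in fibroblast-gated cells (40.4% and 43.5%), H2A in neutrophil-gated cells (35.8% and 33.4%) and H1 in T- or NK-gated cells (48.5% and 58.8%). Bars with under 100 histone UMIs are not drawn.

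Macrophage- or monocyte-gated cells had 2031 CPM (1957 to 2107) with and 416 (404 to 429) without Top2a in the young library. In the aged library they had 593 (552 to 636) and 337 (327 to 346). The young value with Top2a rests on 3 of 54 cells, with 754, 679 and 527 histone UMIs or 69.1% of the total, and was 695 (650 to 743) without them. The aged value was 455 (418 to 495) without its leading 3 of 64 cells. Median cells stood at 322 CPM young and 285 aged.

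Between the ages, the summed level over all cells was 762 CPM (757 to 767) young and 776 (771 to 782) aged, a ratio of 1.02 (1.01 to 1.03). It changed side under TMM scaling (0.942), as a mean over cells (0.745) and with cells thinned to 2000 (0.774) or 5000 UMIs (0.834). TMM scaling lowered every aged/young log2 ratio by 0.11 over all cells and by 0.14 in cells without Top2a. In cells with Top2a the aged level was 0.868 (0.858 to 0.878) of the young, and in cells without 0.816 (0.802 to 0.831). H2A had the lowest aged/young ratio of the classes in both, 0.778 and 0.639, and H2B in cells without Top2a was at 1.03 (0.997 to 1.06). Without Top2a the cell mix differed, with 1375 young and 921 aged neutrophil-gated, 585 and 1022 macrophage- or monocyte-gated and 227 and 26 T- or NK-gated cells. With Top2a it differed too, with 252 and 345 fibroblast-gated, 91 and 17 T- or NK-gated and 25 and 1 neutrophil-gated cells. In fibroblast-gated cells with Top2a the aged/young ratio was 0.902 (0.890 to 0.914), and 0.996 without the 3 richest cells of each library. In fibroblast-gated cells without Top2a the aged/young ratio was 1.03 (1.01 to 1.06), 0.939 with TMM scaling and 0.946 as a mean over cells.

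Over all cells 10 of 60 members were at least 1.5-fold higher in the aged library and 1 lower, against 11.0% and 10.5% of all features. With Top2a 4 of 58 were higher and 8 lower (8.59% and 13.8% of features), and without it 3 of 50 and 14 (11.9% and 9.88%). The member medians were 1.001, 0.875 and 0.842, and those of all features 1.08, 0.996 and 1.10. Among members with at least 50 UMIs over both libraries, the highest aged/young ratios over all cells were those of H1f1, at 7.82 CPM young and 14.96 aged (1.91, 1.76 to 2.08), H2bc18 at 1.47 and 2.82 (1.91, 1.58 to 2.33; 0.935 with cells thinned to 5000 UMIs) and H3c4 at 1.18 and 2.06 (1.75, 1.41 to 2.19). The lowest were those of H2ac18 at 42.2 and 23.3 CPM (0.552, 0.526 to 0.580), H4c8 at 12.0 and 8.12 (0.679, 0.623 to 0.740) and H3c13 at 0.863 and 0.595 (0.69, 0.49 to 0.96).

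The ages were then compared in fibroblast-gated cells with at least 5 Top2a UMIs, 89 young and 162 aged, at median depths of 74271 and 81460 UMIs. Their summed level was 5098 CPM (5046 to 5152) young and 3913 (3879 to 3947) aged, a ratio of 0.767 (0.757 to 0.778). No member of 52 was at least 1.5-fold higher in the aged library and 18 were lower, against 8.50% and 11.8% of features. The core histone classes were the lower ones: H2A at 0.652 (0.639 to 0.665), H3 at 0.720 (0.691 to 0.750), H2B at 0.752 (0.715 to 0.792) and H4 at 0.857 (0.825 to 0.891). H1 was at 1.01 (0.979 to 1.04). Without the 10 of these cells richest in histone UMIs in each library the sum was at 0.929 (0.914 to 0.945), with 6 members lower and 4 higher, H2A at 0.796, H4 at 1.02 and H1 at 1.23. The full set of 89 and 162 cells differed by Rrm2. With an Rrm2 UMI the level was 6016 CPM young and 4258 aged (70 and 136 cells). Without one the order was reversed, at 1455 and 1722 CPM (19 and 26 cells).

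Within the H1 sum the single genes lay on both sides of 1. H1f5 was at 321 CPM (308 to 335) young and 420.4 (409 to 432) aged, a ratio of 1.31 (1.25 to 1.38), and H1f1 at 89.3 and 108 CPM, 1.21 (1.10 to 1.33). H1f3 was at 71.1 and 36.4 CPM, 0.513 (0.451 to 0.583), and H1f2 at 172 and 130.3 CPM, 0.759 (0.705 to 0.818). H1f5 thereby made up 29.5% of H1 UMIs in the young and 38.4% in the aged library, H1f2 15.8% and 11.9%, and H1f3 6.53% and 3.32%. Without the 10 richest cells the ratios were 1.73 for H1f5, 1.44 for H1f1, 0.671 for H1f3 and 0.916 (0.838 to 1.003) for H1f2. An H1f5 UMI was found in 51 of 89 young and 120 of 162 aged cells, and the median cell stood at 26.6 and 184 CPM.

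H2ac24 was at 1506 CPM (1477 to 1535) young and 894 (878 to 910) aged in these cells, a ratio of 0.594 (0.578 to 0.610), and the median cell was at 1118 and 573 CPM. H3c2 was at 64.9 and 32.2 CPM, 0.495 (0.433 to 0.567). H4c4 had 430.3 and 390.0 CPM, 0.906 (0.866 to 0.948). Without the 10 richest cells H2ac24 was at 0.710 and H3c2 at 0.590, whereas H4c4 passed to the other side at 1.09.

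**Figure D5:**
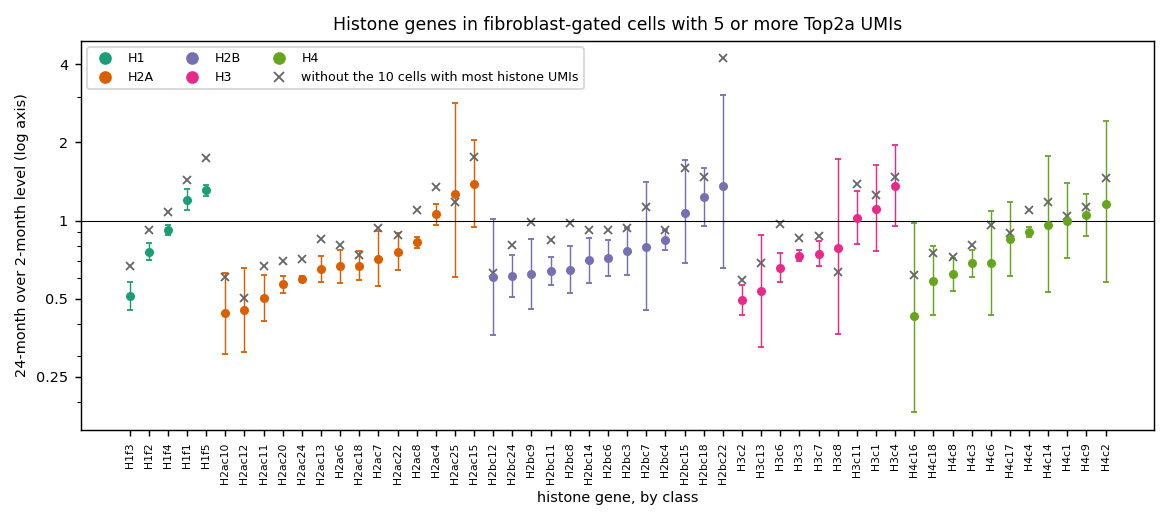
Ratio of aged to young level (log axis) for each histone gene with at least 20 UMIs in fibroblast-gated cells with 5 or more Top2a UMIs, coloured by class, with 95% counting intervals. Grey crosses give the ratio without the 10 of these cells with the most histone UMIs in each library. The median gene lies at 0.740, H1f5 and H1f1 lie above 1 and H1f3 below it with and without those cells.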

How the data were processed

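Droplet single-cell 3′ RNA sequencing was analysed from 2 libraries, 1 per age. The deposited matrices hold UMI counts per gene and barcode; the authors made them with Cell Ranger against GRCm38/mm10, per the submitters' processing notes, which name version 9.0, while the file headers name 8.0.1. The annotation release behind the counts is not given in the sources used here, nor whether a strand setting applied. Near-identical histone genes could split or lose reads in that step.

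Barcodes with at least 500 UMIs and 200 genes and under 15% mitochondrial UMIs were kept (4661 of 4932 young, 4210 of 4379 aged). UMIs were summed per library and group of cells and divided by the group's total (CPM), which weights each cell by its depth. Depth also enters the Top2a call. Levels have exact Poisson intervals, ratios exact conditional binomial intervals and shares Clopper-Pearson intervals, all at 95%. These treat UMIs as independent, although UMIs of 1 cell are not, so they leave out the spread between cells and between animals. Genes with at least 20 UMIs in a contrast were counted as higher or lower from a ratio of 1.5. No test was made, since each age had 1 library, and leaving out a replicate was not possible.

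The members and gene lists were chosen with earlier results of these data known. The named genes were, in each class, the 2 with the most UMIs, and among members with at least 50 UMIs the 3 highest and 3 lowest ratios with against without Top2a and aged against young. The rule for gating on markers, the Rrm2 and Plk1 splits, the fibroblast-gated cells with at least 5 Top2a UMIs, the comparisons between gates, the stem-loop lengths, the gene pairs and the values without the 3 richest cells of a gate were set after the counts had been seen, and further genes were named there. Of the 12 replacement histones listed, 11 were compared. Doublets were not removed in the main values; leaving out the 4% of cells with the highest Scrublet scores (scanpy 1.11.5) was an alternative, as were thinning, other Top2a and gate limits, TMM scaling (edgeR 4.0.16, used for scaling factors only), all barcodes, no UMI minimum, means over cells and leaving out the 10 cells with the most histone UMIs. Counting routines were tested on simulated data. Python 3.11.15, numpy 2.4.6, scipy 1.17.1 and pandas 2.3.3 were used. Stem-loops came from GENCODE M21 transcripts and promoters from RefSeq, both on GRCm38.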

Additional observations from a re-analysis of the deposited data

Results flagged for a closer look

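The aged/young ratio of the summed histone level lay on both sides of 1 among the marker gates, and no difference between gates was tested. In cells with a Top2a UMI it was 1.79 in T- or NK-gated cells (4385 CPM young, 7865 aged; 91 and 17 cells) and 1.20 in endothelial-gated cells (3409 and 4092 CPM; 10 and 15 cells). It was 0.902 in fibroblast-gated cells (2469 and 2227 CPM; 252 and 345 cells) and 0.292 in macrophage- or monocyte-gated cells (2031 and 593 CPM; 54 and 64 cells). The richest 3 cells held 48.6% and 73.5% of these histone UMIs in the T- or NK-gated cells, 93.1% and 67.6% in the endothelial-gated, 69.1% and 29.1% in the macrophage- or monocyte-gated and 15.8% and 6.22% in the fibroblast-gated cells, young and aged in turn. Without the 3 richest cells with Top2a of each gate and library the ratios were 1.11 (1.01 to 1.22) in the T or NK gate, 3.34 (2.82 to 3.97) in the endothelial, 0.655 (0.588 to 0.730) in the macrophage or monocyte and 0.996 (0.982 to 1.01) in the fibroblast gate, a setting chosen after seeing the data. Without the 10 cells of each library with the most histone UMIs the fibroblast-gated ratio was 1.15 and the endothelial-gated one 0.756. With the stricter gate the T- or NK-gated ratio was 1.32 and the macrophage- or monocyte-gated one 0.395.

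In cells without Top2a the ratio was 1.03 in fibroblast-gated cells (203 and 209.9 CPM), 0.809 in macrophage- or monocyte-gated cells (416 and 337 CPM) and 0.673 in neutrophil-gated cells (507 and 341 CPM). Each rests on 1 library per age.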

How the results depend on the processing

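No paired analysis was possible because each age had 1 library. With at least 2 Top2a UMIs for the cells with Top2a, the with/without ratio of the summed level was 12.9 young and 11.4 aged, the aged/young ratio with Top2a 0.726 and the aged/young ratio of the Top2a share 1.32. With cells thinned to 2000 UMIs these with/without ratios were 8.91 and 9.89, the aged/young ratios 0.774 in all cells, 0.800 with and 0.721 without Top2a, and 1.22 for the share, while 27 of 31 young and 20 of 24 aged members with 20 UMIs were higher with Top2a, against 36.7% and 30.7% of features. Thinning to 5000 UMIs gave 10.1 and 11.0327, then 0.834, 0.827 and 0.755, and 31 of 37 aged members against 24.5% of features. Leaving out the 4% highest doublet scores gave 9.01 in the aged library and aged/young ratios of 1.04 in all cells and 0.881 with Top2a. Without the 10 cells with the most histone UMIs the with/without ratios were 6.54 and 7.57, and the aged/young ratios 1.06 and 0.944. Means over cells gave 4.99 and 6.23, then 0.745, 0.836 and 0.669. TMM scaling gave aged/young ratios of 0.942, 0.887 and 0.743. The cause of these shifts was not tested.

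For single genes the aged/young ratio passed to the other side of 1 for H2ac24 without the 10 cells with the most histone UMIs (1.06), for H2bc4 thinned to 2000 UMIs (0.958), as a mean over cells (0.887) and under TMM scaling (0.969), for H4c4 thinned to 2000 and 5000 UMIs (0.844 and 0.930) and as a mean over cells (0.836), and for H2bc18 thinned to 5000 UMIs (0.935). The aged with/without ratio did so for H3c13, at 0 with cells thinned to 2000 or 5000 UMIs, and for H2ac18 as a mean over cells (0.651). By gate, the aged/young ratio did so in fibroblast-gated cells with Top2a without those 10 cells (1.15), in those without Top2a as a mean over cells (0.946) and under TMM scaling (0.939), and in endothelial-gated cells with Top2a without those 10 cells (0.756). In fibroblast-gated cells with at least 5 Top2a UMIs, H4 did so at 1.02 without the 10 richest of them, a setting chosen after seeing the data, like the thinning of the Rrm2 split. Of 455 values for named genes, 247 moved by less than the counting interval, as did 66 of 136 by gate. Of the 12 values for results and settings added after seeing the data, 0 did. Among these 11 moved further and 1 passed to the other side of 1. Levels resting on few UMIs, such as those of H3c2 and H2ac10 in cells without Top2a, are limited by depth.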
